A study of Mus musculus with 6 samples.

Results

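The tetraspanin genes described here were the 10 genes Cd9, Cd37, Cd53, Cd63, Cd81, Cd82, Tspan9, Tspan13, Tspan15 and Tspan33, found by symbol in the GENCODE M21 annotation among 55487 gene identifiers. All 10 were matched, and all 10 passed the filter on low counts that left 14427 genes for testing. The RNA came from total hematopoietic cells that had been sorted as CD45+ (CD45, encoded by Ptprc, is carried by leukocytes), from 2 organs of WT mice of the strain C57BL6/J: the mesenteric lymph node (mLN), which drains the intestine, and the spleen, which filters the blood. The cells were freshly prepared in both tissues, and polyA RNA was sequenced in 3 mLN and 3 spleen libraries. No allele or agent was applied in either group, and the labels give neither the age of the mice nor whether each library stems from its own animal. The p-values therefore measure only how far these libraries spread, which may be technical.

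Tetraspanins are small proteins that cross the membrane 4 times and bind each other and other surface proteins sideways, forming patches in which receptors, integrins and proteases are held together. Few of them bind a ligand of their own. They act mainly on where a partner travels and how long it stays at the surface. In lymphoid organs CD37 and CD53 are leukocyte proteins, CD81 is part of the co-receptor complex of the B-cell antigen receptor, and a subgroup with 8 cysteines in the large outer loop, called TspanC8, escorts the protease ADAM10.

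The mLN libraries held 12584244 to 18119551 expected counts and the spleen libraries 16163783 to 17133045. Levels within a gene are given as CPM, which is counts in 1000000 counts of a library, adjusted by TMM factors, with mean ± SD over n = 3 libraries in each tissue, and levels between genes as TPM, which also divides by transcript length. Fold changes are mLN over spleen. A call means that edgeR's quasi-likelihood test across all 14427 genes gave an adjusted p under 0.05. Ptprc was high throughout, at 2675 ± 35.0 CPM in mLN and 2191 ± 39.0 CPM in spleen. Of 10 listed stromal, endothelial and epithelial genes, Pdpn had no counts in either tissue, but 4 passed the filter. Their list summed to 211 to 232 CPM in mLN and 209 to 214 CPM in spleen, so Pdpn alone does not show purity. T-cell RNA was richer in mLN and B-cell RNA in spleen: the 12 genes of the pan-T list all rose (median log2 fold change 1.15) and the 12 genes of the pan-B list all fell (median -0.81). The summed level of the pan-B list was 4103 to 4166 CPM in mLN and 7040 to 7176 CPM in spleen, and that of the pan-T list 3671 to 3718 CPM in mLN and 1613 to 1630 CPM in spleen.

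Of the 10 tetraspanin genes, 2 rose in mLN (Tspan9 and Cd53), 6 fell (Cd9, Cd37, Cd63, Cd81, Tspan15 and Tspan33) and 2 were not called (Cd82 and Tspan13). Among all genes tested 45.5% were called, 21.8% higher and 23.8% lower in mLN. At least 2-fold changes were found for 1 member that was higher, Tspan9, and 2 that were lower, Tspan15 and Tspan33, beside 3.67% and 8.60% of all genes. The libraries of the tissues did not overlap for 8 of the 10 genes, 2 higher and 6 lower in mLN, beside 52.9% of all genes, 25.5% higher and 27.5% lower. The median log2 fold change of the 10 genes was -0.36, beside -0.00 for all genes tested. In such mixed cells, fewer cells of a type and less RNA per cell cannot be told apart, for any result that follows.

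**Figure D1:**
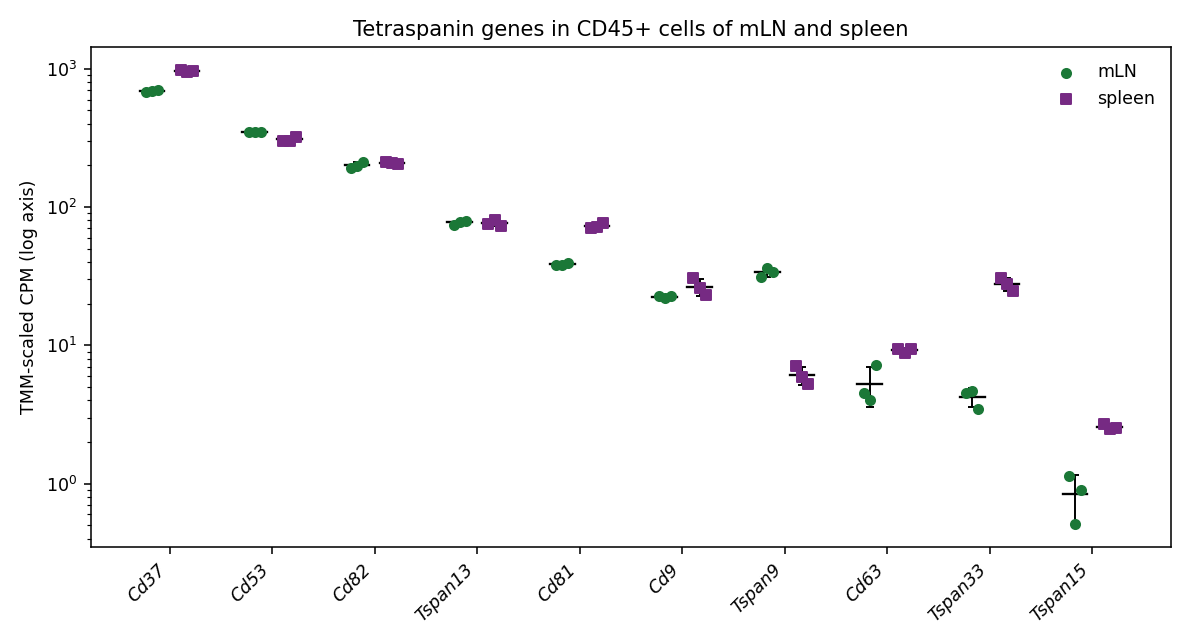
TMM-scaled CPM (log axis) of the 10 tetraspanin genes in each of the 3 mLN (green circles) and 3 spleen (purple squares) libraries, with horizontal lines at the mean and bars of 1 SD. Tspan9 stands apart upward in mLN and Tspan33 downward, while Cd82 and Tspan13 overlap between tissues.

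The most abundant members were the leukocyte tetraspanins Cd37, Cd53 and Cd82. Cd37 (ENSMUSG00000030798, chr7:45233632-45239115, minus strand, GRCm38) encodes a tetraspanin that is richest on mature B cells, where it organises the integrin α4β1. Its level was 678, 686 and 708 CPM in the mLN libraries, against 980, 952 and 961 CPM in the spleen libraries. All 3 mLN libraries lay below all 3 spleen libraries, with means of 691 ± 15.8 CPM in mLN and 964 ± 14.0 CPM in spleen. The log2 fold change was -0.48 (SE 0.0257, adjusted p = 1.17e-19).

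Cd53 (ENSMUSG00000040747, chr3:106759921-106790149, minus strand) encodes a tetraspanin found on nearly all leukocytes, which acts in lymphocyte recirculation. It had 348, 347 and 352 CPM in the mLN libraries, against 303, 298 and 324 CPM in the spleen libraries. Here the mLN libraries were all higher, and nearly level with each other. The means were 349 ± 2.86 CPM in mLN and 308 ± 13.5 CPM in spleen, a log2 fold change of 0.18 (SE 0.0319, adjusted p = 1.03e-05).

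Cd82 (ENSMUSG00000027215, chr2:93419111-93463140, minus strand), known as a metastasis suppressor and as a co-stimulatory molecule of T cells, had 192, 199.5 and 213 CPM in the mLN libraries, against 212, 208 and 205 CPM in the spleen libraries. The tissues overlapped. Its log2 fold change was -0.05, with a 95% interval of -0.12 to 0.02 (SE 0.0363, adjusted p = 0.280).

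The sequences upstream of Cd37 and Cd53 are shown because these 2 members, of highest level in both tissues, shared a motif that the windows of the other 8 lacked. Promoter windows were taken from RefSeq (table build GRCm38.p6), from 150 bases before to 30 bases after the start, for all 10 members. Capitals mark exact matches to the motifs searched. All motifs were sought on both strands. The ETS word bound by PU.1 was GAGGAAGT, which reads ACTTCCTC on the other strand. The GC box was searched as GGGCGG. The letters of the TATA box were TATAAA. A word of the kind that erythroid GATA factors bind, AGATAA, was the last of them, and no match overlapped another motif.
Cd37 promoter, chr7:45238810-45238989, minus strand: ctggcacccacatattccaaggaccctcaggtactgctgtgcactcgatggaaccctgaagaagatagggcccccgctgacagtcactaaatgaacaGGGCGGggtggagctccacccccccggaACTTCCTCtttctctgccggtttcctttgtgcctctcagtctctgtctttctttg
Cd53 promoter, chr3:106790120-106790299, minus strand: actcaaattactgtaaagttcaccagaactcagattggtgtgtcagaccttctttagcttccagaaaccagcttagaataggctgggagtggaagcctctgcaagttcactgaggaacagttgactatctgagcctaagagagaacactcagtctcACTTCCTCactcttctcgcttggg
The ETS word lay at position -25 in Cd37 and at position 7 in Cd53, counted from the RefSeq start, and in 2.01% of 32851 RefSeq windows of the same length. The RefSeq start of Cd37 lies 276 bases inside the gene as GENCODE draws it, that of Cd82 190 bases and that of Cd63 8356 bases. The Cd63 window, which held no match, is thus far from the GENCODE start of that gene. A GC box was present in 7 of the 10 windows and in 31.0% of all windows, and the GATA word in 0 and 6.44%. The TATA letters were found in 1 window (Cd81) and in 8.37% of all windows. In Cd81 they began at position 7, after the start. These are matches of letters only, and binding was not measured.

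The leukocyte members were also set against marker lists of cell types. The log2 CPM of a gene (with a prior count of 2) minus the mean log2 CPM of a marker list is called a ratio here. It is given for each library, as a description with no test. Between tissues a ratio differs by the change of the gene less that of the list, so it restates these changes and is no separate result. For Cd37 against the pan-B list the ratio was 1.37, 1.38 and 1.41 in the mLN libraries and 1.08, 1.03 and 1.07 in the spleen libraries, so Cd37 was lower in CPM in mLN and higher per unit of pan-B RNA. Against the pan-T list the order was the other way, with a mean ratio of 1.57 ± 0.0428 in mLN and 3.23 ± 0.00167 in spleen. Cd53 stood between these lists: its ratio to the pan-B list was 0.99 higher in mLN than in spleen, and its ratio to the pan-T list 1.00 lower. Cd82 did the same, with differences of 0.76 against the pan-B list and -1.22 against the pan-T list. Other lists moved as follows. Of the tested genes, 5 of 6 fell and 1 rose for natural killer cells (median log2 fold change -0.95), 4 of 7 fell and 2 rose for monocytes (-0.87), 6 of 7 fell for conventional dendritic cells (-1.19), 3 of 6 fell and 2 rose for plasmacytoid dendritic cells (-1.02), and 3 of 4 rose and 1 fell for regulatory T cells (0.97). All 12 neutrophil genes fell, with sums of 19.7 to 20.1 CPM in mLN and 1588 to 1628 CPM in spleen. Of the stromal, endothelial and epithelial genes 4 were tested and 1 fell, and the sum of that list, mostly Pecam1, was 211 to 232 CPM in mLN and 209 to 214 CPM in spleen.

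**Figure D2:**
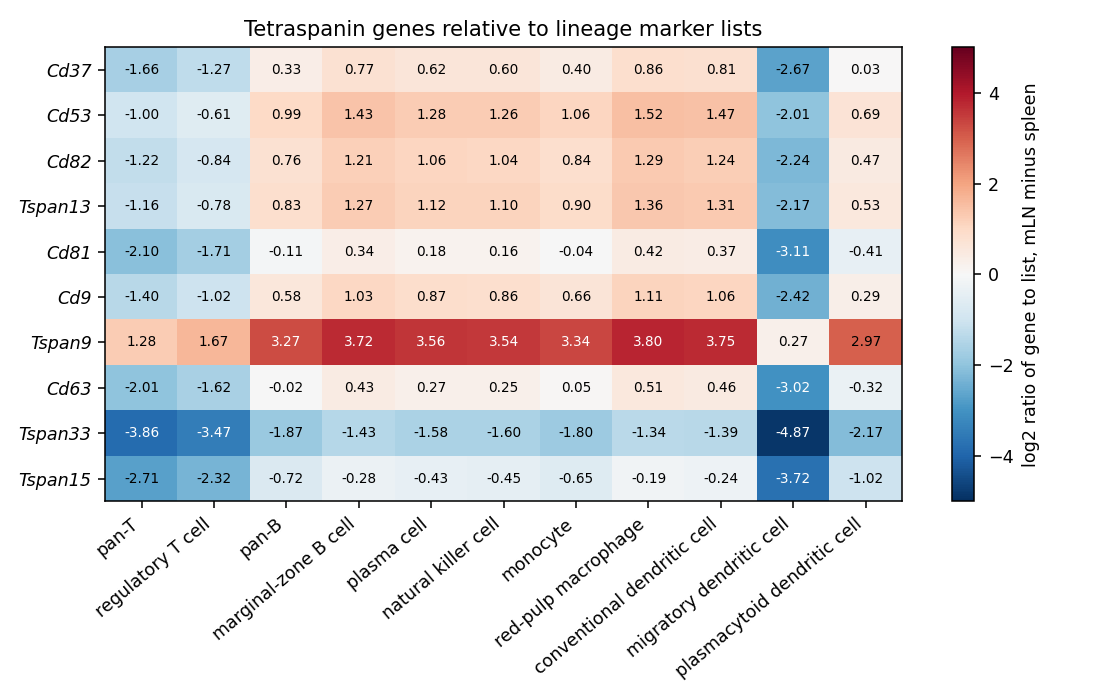
Difference (mLN minus spleen) of the log2 ratio of each tetraspanin gene (rows) to the mean log2 CPM of a marker list (columns), averaged over 3 libraries a tissue; red is higher in mLN. Cd81 and Cd63 are close to 0 against the pan-B list and also against the monocyte list. Tspan9 is close to 0 only against the migratory dendritic cell list among those drawn. Tspan33 is below 0 against every list drawn. It was above 0 against 3 lists that are not drawn: neutrophil (4.54), erythroid (4.19) and basophil and mast cell (1.84).

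Genes of proteins known to bind a tetraspanin moved in both directions. Of the 19 such partner genes listed for the whole family, 16 were tested, 5 rose, 10 fell and 1 was not called, with a median log2 fold change of -0.14. Il7r, the interleukin-7 receptor chain whose surface level depends on CD53 in developing B cells, had 214 ± 4.82 CPM in mLN and 93.3 ± 1.69 CPM in spleen (adjusted p = 2.89e-27), and is also a gene of T cells. The α4 and β1 integrin genes Itga4 and Itgb1, partners of CD37, fell in mLN by 0.18 and 0.45 on the log2 scale. Clec7a, which encodes the fungal receptor dectin-1 that binds CD37, fell to 7.60 ± 1.83 CPM in mLN, against 16.9 ± 1.58 CPM in spleen. Ptpn6, a phosphatase recruited by CD37, and Prkcb, a kinase recruited by CD53, fell by 0.14 and 0.25. Itga6, the α6 integrin chain of laminin receptors, rose by 1.07, and the integrin α6β1 is among the partners of several tetraspanins.

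Cd81, the member of the B-cell co-receptor, fell together with the partner gene Cr2. Cd81 (ENSMUSG00000037706, chr7:143052739-143067934, plus strand) encodes a tetraspanin of the co-receptor that lowers the threshold for B-cell activation. It had 38.4, 37.8 and 39.4 CPM in the mLN libraries, against 70.9, 71.8 and 76.6 CPM in the spleen libraries. No mLN library came near a spleen library. The means were 38.5 ± 0.834 CPM in mLN and 73.1 ± 3.04 CPM in spleen, for a log2 fold change of -0.92 (SE 0.0652, adjusted p = 9.75e-16).

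The complement receptor chain of the complex was lower as well. Cr2, which encodes that chain (CD21) and which marginal-zone B cells carry at high level, had 154 ± 5.92 CPM in mLN and 428 ± 1.63 CPM in spleen (log2 fold change -1.47, SE 0.0330, adjusted p = 1.04e-32). The log2 fold change of Cd81 lay near the pan-B median of -0.81, and that of Cr2 below it. The ratio of Cd81 to the pan-B list was -2.77, -2.80 and -2.75 in the mLN libraries and -2.71, -2.70 and -2.58 in the spleen libraries, a difference of -0.11. That is the smallest difference from the pan-B list among the 10 genes after that of Cd63, although the mLN libraries were all lower. Such closeness was not particular to the B-cell list. Against the monocyte list the difference of Cd81 was smaller still, at -0.035, and the tissues overlapped.

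Cd9 and Cd63, tetraspanins of many cell types, were both lower in mLN, with unequal firmness. Cd9 (ENSMUSG00000030342, chr6:125460266-125494791, minus strand) marks marginal-zone B cells, B-1 cells and plasma cells in the mouse and is also present on platelets and monocytes. Its level was 22.6, 21.9 and 22.7 CPM in the mLN libraries, against 30.6, 25.8 and 23.0 CPM in the spleen libraries. The mLN libraries were even, and the lowest spleen library lay just above the highest of them. The log2 fold change was -0.24 (SE 0.0998, adjusted p = 0.0442). This call was lost with DESeq2 (adjusted p = 0.0918) and without any 1 library other than spleen replicate 3, and without spleen replicate 1 the log2 fold change was -0.13 (adjusted p = 0.395).

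The lists of marginal-zone B cells and plasma cells fell by more than Cd9 did. For marginal-zone B cells 5 of 6 listed genes fell and 1 rose (median log2 fold change -1.10), the summed level being 467 to 484 CPM in mLN and 802 to 806 CPM in spleen. For plasma cells 7 of 8 genes fell (median -1.12), with sums of 404 to 423 CPM in mLN and 1074 to 1083 CPM in spleen. Platelet and monocyte lists had medians of -1.21 and -0.87, but 1 of 4 and 2 of 7 tested genes rose. The platelet sum was higher in mLN, at 106 to 116 CPM, against 71.3 to 76.5 CPM in spleen. Monocyte sums overlapped, at 484 to 504 CPM in mLN and 486 to 508 CPM in spleen. The ratio of Cd9 to the marginal-zone list was -0.46 ± 0.0837 in mLN and -1.48 ± 0.186 in spleen, all mLN libraries being higher. Of the immunoglobulin-superfamily partners that CD9 and CD81 share, Igsf8 fell by 0.35 on the log2 scale (adjusted p = 0.00656), although its tissues overlapped in CPM. Ptgfrn rose by 0.66 (adjusted p = 0.00313), to 9.17 ± 0.613 CPM in mLN, against 5.81 ± 1.63 CPM in spleen. The call of Igsf8 was lost without mLN replicate 2 (adjusted p = 0.0668), without spleen replicate 1 (0.0544) and without spleen replicate 3 (0.0715).

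Cd63 (ENSMUSG00000025351, chr10:128900989-128912822, plus strand) encodes a tetraspanin of late endosomes, secretory granules and exosomes that reaches the surface when granule cells degranulate. It had 4.54, 4.05 and 7.21 CPM in the mLN libraries, against 9.37, 8.77 and 9.38 CPM in the spleen libraries. The spleen libraries were level and all higher, while mLN replicate 3 stood above the other 2 mLN libraries. The log2 fold change was -0.82 (SE 0.190, adjusted p = 0.000379), and it was called in each fit that left out 1 library. The values rest on 68 to 89 counts per mLN library and 144 to 163 per spleen library.

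Lists of basophils and of red-pulp macrophages, cells rich in granules or lysosomes, were also lower in mLN. The list of sinus and marginal-zone macrophages went the other way. All 3 of its tested genes rose (median log2 fold change 5.81), with sums of 42.1 to 43.0 CPM in mLN and 2.31 to 2.93 CPM in spleen. All 5 tested basophil and mast cell genes fell (median log2 fold change -5.65, also with genes of 0 to 3 counts set at their bound, Ms4a2 having no mLN counts), with sums of 1.69 to 2.34 CPM in mLN and 40.9 to 46.4 CPM in spleen. Of 7 red-pulp macrophage genes 6 fell (median -1.34), with sums of 44.3 to 48.1 CPM in mLN and 118 to 129 CPM in spleen. The part of these cells in the Cd63 difference was not tested. The ratio of Cd63 to the monocyte list was -2.03 ± 0.414 in mLN and -2.09 ± 0.0354 in spleen, and the tissues overlapped. That was not particular to monocytes. The ratio to the pan-B list was -5.66 ± 0.421 in mLN and -5.64 ± 0.0667 in spleen, overlapping too. So did the ratios to the natural killer cell, plasma cell and red-pulp macrophage lists, though not those to every list. Sdcbp, which encodes the syntenin that binds the tail of CD63 in exosome formation, had 149 ± 4.12 CPM in mLN and 157 ± 4.20 CPM in spleen and was not called (log2 fold change -0.07, adjusted p = 0.111).

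The largest fall and the largest rise among the 10 genes were those of Tspan33 and Tspan9. Their promoter windows are printed for that reason, in the same form as above.
Tspan33 promoter, chr6:29694064-29694243, plus strand: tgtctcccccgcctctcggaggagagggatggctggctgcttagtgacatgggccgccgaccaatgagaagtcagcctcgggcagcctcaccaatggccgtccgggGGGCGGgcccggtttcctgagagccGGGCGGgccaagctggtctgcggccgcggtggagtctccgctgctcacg
Tspan9 promoter, chr6:128143549-128143728, minus strand: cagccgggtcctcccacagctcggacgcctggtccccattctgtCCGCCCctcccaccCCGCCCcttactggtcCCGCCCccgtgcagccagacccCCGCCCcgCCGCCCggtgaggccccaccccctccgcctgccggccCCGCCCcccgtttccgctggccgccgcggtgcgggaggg
The share of G and C was 70.0% in the Tspan33 window and 80.0% in the Tspan9 window, beside a median of 53.9% over all windows. It was also high in other members, at 70.0% for Tspan13 and 69.4% for Tspan15.

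Tspan33 (ENSMUSG00000001763, chr6:29694222-29718559, plus strand) is a TspanC8 gene known from erythroid progenitors and from activated B cells. It had 4.54, 4.67 and 3.48 CPM in the mLN libraries, against 30.5, 27.9 and 24.7 CPM in the spleen libraries. Every spleen library was more than 5 times as high as any mLN library. The means were 4.23 ± 0.650 CPM in mLN and 27.7 ± 2.89 CPM in spleen, 6.47-fold lower in mLN. The log2 fold change was -2.69 (SE 0.138, adjusted p = 3.04e-20).

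Tspan33 fell further than the B-cell lists. Its ratio to the pan-B list was -5.82, -5.78 and -6.20 in the mLN libraries and -3.92, -4.06 and -4.20 in the spleen libraries, and its ratio to the marginal-zone B-cell list was 1.43 lower in mLN. The log2 fold changes of the 6 genes of that list ran from -3.02 to 0.18, with a median of -1.10. Erythroid genes fell by far more than Tspan33: all 11 fell (median -6.80, the same with genes of 0 to 3 counts at their bound), with sums of 15.6 to 18.4 CPM in mLN and 1626 to 1678 CPM in spleen, and Car1, Rhag and Kel were among the 4 with no counts in mLN. The part of each of these cell types in the Tspan33 difference was not tested.

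Tspan15 (ENSMUSG00000037031, chr10:62185396-62231251, minus strand), a TspanC8 gene whose product directs ADAM10 to N-cadherin, was the member of lowest level. It had 1.13, 0.506 and 0.891 CPM in the mLN libraries, which are 17, 9 and 11 counts, against 2.70, 2.50 and 2.51 CPM in the spleen libraries, which are 47, 41 and 42 counts. All spleen libraries were higher, by a log2 fold change of -1.62 with a wide error (SE 0.412, 95% interval -2.43 to -0.81, adjusted p = 0.00118). The authors' effective length of this gene also differed between libraries, from 1824 to 3422 bases in mLN and from 1439 to 2286 bases in spleen.

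The TspanC8 group as a whole was dominated by Tspan14, which lies outside the 10 genes. Summed over the 6 TspanC8 genes the level was 93.0 ± 7.38 TPM in mLN and 109 ± 6.54 TPM in spleen. Tspan14 made up 79.3 ± 0.807% of it in mLN and 58.5 ± 0.909% in spleen, and Tspan33 made up 3.53 ± 0.756% in mLN and 20.8 ± 1.71% in spleen. Tspan5 held 14.5 ± 0.376% in mLN and 13.6 ± 0.626% in spleen, Tspan17 held 1.89 ± 0.455% in mLN and 5.13 ± 1.63% in spleen, and Tspan15 held 0.570 ± 0.326% in mLN and 1.97 ± 0.427% in spleen. Tspan10 stayed under the filter in both tissues.

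In CPM, Tspan14 rose to 109 ± 4.75 in mLN, against 90.7 ± 4.67 in spleen (log2 fold change 0.27, SE 0.0490, adjusted p = 1.44e-05). Tspan17 fell, with 2.27, 0.900 and 1.62 CPM in the mLN libraries and 3.62, 3.29 and 5.14 CPM in the spleen libraries (log2 fold change -1.34, adjusted p = 0.000756), and Tspan5 was not called (0.04, adjusted p = 0.797). So 1 of the 5 tested TspanC8 genes rose, 3 fell and 1 was not called. Adam10 itself, the protease they escort, differed little in size: 157 ± 5.18 CPM in mLN and 173 ± 6.99 CPM in spleen (log2 fold change -0.14, SE 0.0384, adjusted p = 0.00331). Adam17, the related protease, had 116 ± 5.03 CPM in mLN and 126 ± 2.21 CPM in spleen (-0.13, adjusted p = 0.0146), a call lost without mLN replicate 2 (adjusted p = 0.139) or without spleen replicate 1 (0.0623).

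**Figure D3:**
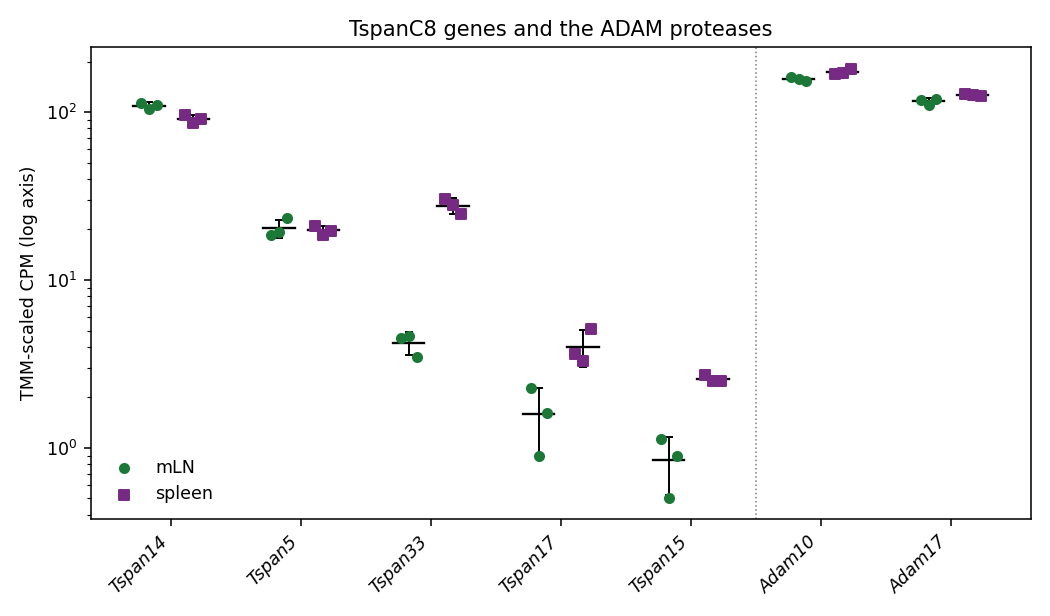
TMM-scaled CPM (log axis) of the 5 tested TspanC8 genes and, right of the dotted line, of Adam10 and Adam17, in each mLN (green circles) and spleen (purple squares) library, with lines at the mean and bars of 1 SD. Tspan33 shows the widest gap, Tspan14 is the highest in both tissues, and Adam10 lies within a narrow range.

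Genes whose products ADAM10 cuts did not share a direction. Of the 6 listed, 2 rose, 3 fell and 1 was not called, with a median log2 fold change of -0.09. Notch1, the receptor that drives T-lineage development, rose to 306 ± 7.38 CPM in mLN, against 175 ± 3.30 CPM in spleen (0.80). Notch2, which marginal-zone B cells need, fell to 393 ± 16.3 CPM in mLN, against 534 ± 11.7 CPM in spleen (-0.44). Cxcl16, a membrane-bound chemokine of dendritic cells and macrophages, rose to 11.0 ± 1.24 CPM in mLN, against 2.86 ± 0.322 CPM in spleen (1.93). Fcer2a, the low-affinity IgE receptor CD23 of follicular B cells, and Cd44, the hyaluronan receptor, fell by 0.19 and 0.61. Lag3, an inhibitory receptor of T cells, was not called (0.01, adjusted p = 0.928).

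Tspan9 (ENSMUSG00000030352, chr6:127961396-128143594, minus strand) was the member that rose by the most, and encodes a tetraspanin studied mainly in platelets and megakaryocytes. It had 31.3, 36.1 and 34.0 CPM in the mLN libraries, against 7.07, 5.91 and 5.26 CPM in the spleen libraries. The lowest mLN library was more than 4 times the highest spleen library. The means were 33.8 ± 2.41 CPM in mLN and 6.08 ± 0.917 CPM in spleen, 5.55-fold higher in mLN. The log2 fold change of 2.47 (SE 0.121, adjusted p = 6.58e-21) places Tspan9 at percentile 99.7 of the log2 fold changes of all genes tested.

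The platelet list did not rise with Tspan9. Of 8 listed genes 4 were tested, 2 of these fell and Itgb3, an integrin chain also found on other cells, rose, while 3 listed genes, Ppbp and Gp9 among them, had no counts in mLN. Itga2b, the platelet integrin chain, fell to 1.83 ± 0.765 CPM in mLN, against 9.34 ± 0.514 CPM in spleen. The sum of the list was 106 to 116 CPM in mLN and 71.3 to 76.5 CPM in spleen, and Itgb3 alone had 107 ± 4.90 CPM in mLN and 58.1 ± 1.60 CPM in spleen. Gp6, the collagen receptor that TSPAN9 accompanies on platelets, stayed under the filter, at 0.127 CPM in mLN and 0.0575 CPM in spleen.

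The list whose ratio to Tspan9 differed least between tissues was that of migratory dendritic cells, the cells that carry antigen from the gut to the node. Of its 9 tested genes 8 rose and 1 fell (median log2 fold change 2.84), with sums of 587 to 597 CPM in mLN and 331 to 341 CPM in spleen. The ratio of Tspan9 to this list was 0.16, 0.39 and 0.23 in the mLN libraries and 0.21, -0.06 and -0.17 in the spleen libraries, and the tissues overlapped. Against the pan-T list Tspan9 was 1.28 higher in mLN, and against the sinus macrophage list, of which the 3 tested genes all rose (median 5.81, the same with Cd209b, which had no spleen counts, at its bound), it was 2.16 lower. The part of these cells in the Tspan9 difference was not tested.

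Tspan13 (ENSMUSG00000020577, chr12:36014557-36042500, minus strand), whose product modulates voltage-gated calcium channels in neurons, had 74.7, 78.4 and 79.1 CPM in the mLN libraries, against 75.9, 80.4 and 73.4 CPM in the spleen libraries. The tissues overlapped fully. Its log2 fold change was 0.02, with a 95% interval of -0.09 to 0.12 (SE 0.0551, adjusted p = 0.850), and its sign turned under 2 alternatives. Per unit of pan-B RNA Tspan13 was nonetheless 0.83 higher in mLN on the log2 scale, since the pan-B list fell.

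**Figure D4:**
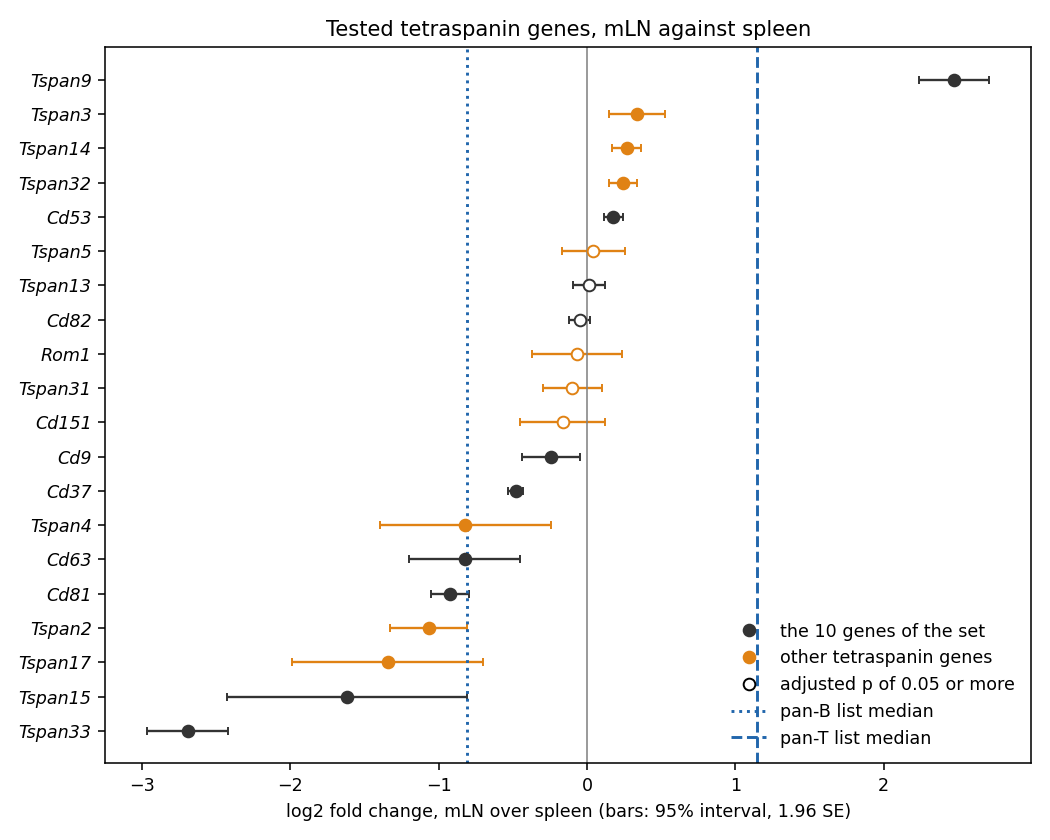
Log2 fold change (mLN over spleen) with its 95% interval for the 20 tested tetraspanin genes with counts in both tissues; the 10 genes described are black, the others orange, and open symbols were not called. The dotted line is the pan-B median at -0.81 and the dashed line the pan-T median at 1.15; Tspan9 lies beyond the pan-T line, and Tspan33, with its whole interval, beyond the pan-B line.

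Other genes of the family moved in both directions too. Of 22 other tetraspanin genes listed, 21 were matched and 11 tested; 3 rose, 4 fell (3 of them at least 2-fold) and 4 were not called, with a median log2 fold change of -0.10. Tspan32, a regulator of lymphocyte responses, rose to 132 ± 10.2 CPM in mLN, against 112 ± 5.78 CPM in spleen (0.24, adjusted p = 8.66e-05), and Tspan3 rose to 27.7 ± 3.04 CPM in mLN, against 21.8 ± 0.843 CPM in spleen (0.33, adjusted p = 0.00389). The calls of Tspan32, Tspan14 and Tspan3 were not made by limma on log2(TPM + 1). Tspan2 fell to 8.32 ± 0.0874 CPM in mLN, against 17.4 ± 1.49 CPM in spleen (-1.07, adjusted p = 5.83e-09). Tspan4, linked to the migrasomes of moving cells, fell by 0.82 (adjusted p = 0.0203), a call lost without mLN replicate 1, mLN replicate 2, spleen replicate 2 or spleen replicate 3 (adjusted p of 0.0703, 0.0627, 0.0525 and 0.0564).

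Tspan8 was the other extreme. It had no counts in any mLN library, against 3.39, 2.44 and 2.69 CPM in the spleen libraries, 144 counts in all. Against a floor of 3 counts over the mLN libraries, Tspan8 was at least 42.9-fold lower in mLN. Reads carried no molecular identifiers, so the floor covers counting error only.

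Ranked per length, the 10 genes kept their top 3 places in both tissues. Cd37 stood first with 946 ± 65.6 TPM in mLN and 1314 ± 15.6 TPM in spleen, followed by Cd53 with 328 ± 2.60 TPM in mLN and 301 ± 13.6 TPM in spleen, and Cd82 with 190 ± 13.7 TPM in mLN and 202 ± 2.31 TPM in spleen. Below them the order changed. In mLN it ran Tspan13 (67.8 ± 1.02 TPM), Cd81 (46.7 ± 4.06), Cd9 (32.0 ± 0.609), Tspan9 (17.5 ± 1.12), Cd63 (8.93 ± 2.88), Tspan33 (3.26 ± 0.586) and Tspan15 (0.547 ± 0.345). In spleen it ran Cd81 (90.8 ± 1.37 TPM), Tspan13 (69.9 ± 4.74), Cd9 (39.4 ± 5.78), Tspan33 (22.6 ± 2.42), Cd63 (16.8 ± 1.81), Tspan9 (3.73 ± 1.24) and Tspan15 (2.14 ± 0.490). Neighbours in either order did not overlap between libraries. In spleen Tspan9 and Tspan15 nearly met, the lowest Tspan9 value being 2.60 TPM and the highest Tspan15 value 2.59 TPM. The authors' effective length of Tspan9 ran from 1546 to 3375 bases in the spleen libraries, so its TPM and rank there are uncertain.

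Cd37 alone made up much of the tetraspanin RNA. It held 48.2 ± 1.11% of the summed TPM of all 31 matched tetraspanin genes in mLN and 55.4 ± 0.168% in spleen. Cd53 held 16.8 ± 0.659% in mLN and 12.7 ± 0.435% in spleen, and Tspan9 stood at rank 11 of the family in mLN and rank 20 in spleen. Tspan33 had the opposite shift, at rank 17 in mLN and rank 10 in spleen. The 10 genes together held 83.7 ± 0.656% in mLN and 87.0 ± 0.0987% in spleen, of a sum of 1960 ± 90.5 TPM in mLN and 2371 ± 25.2 TPM in spleen.

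**Figure D5:**
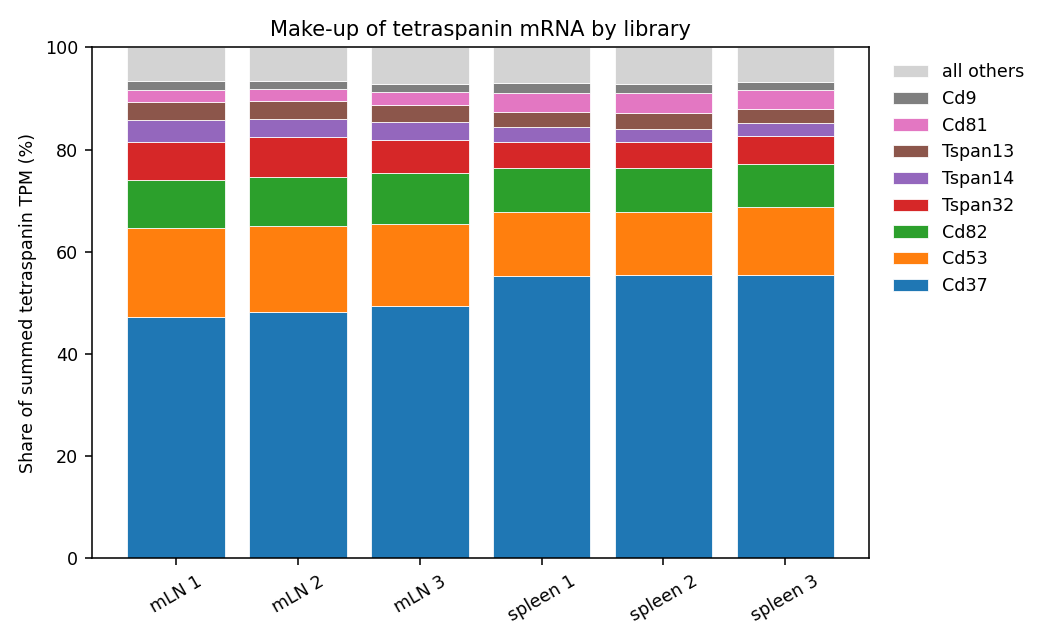
Share (%) of the summed TPM of all matched tetraspanin genes held by single genes in each library, mLN libraries at left and spleen libraries at right. Cd37 takes 47.2 to 49.4% in the mLN libraries and 55.2 to 55.5% in the spleen libraries. Cd53, Cd82, Tspan32, Tspan14 and Tspan13 take larger shares in mLN. The sum was lower in mLN, so a larger share need not mean a higher level, and Cd82 and Tspan13 were not called.

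The genes most like a member over the 6 libraries, by Euclidean distance between centred log2 CPM profiles among 8825 protein-coding genes of at least 10 CPM, were Slc16a5 (distance 0.336) and Spsb1 (0.403) for Tspan9. For Tspan33 they were St3gal5 (0.416) and Ptpn14 (0.458). Kctd12 (0.0832) and Trim7 (0.0882) lay nearest to Cd81, Rbbp8 (0.0495) and Notch2 (0.0665) to Cd37, and Arid4b (0.0284) and Rbm28 (0.0298) to Cd53. With a single contrast over 6 libraries, this likeness mostly restates a shared difference between the tissues, as for Slc16a5 with a log2 fold change of 2.29 and St3gal5 with -3.03.

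Some members share sequence with other annotated genes. Antisense or opposite-strand genes overlap Cd9 (Gm28809, at 2.90 CPM in mLN and 0.873 CPM in spleen), Cd37 (Tead2, at 2.78 CPM in mLN and 1.94 CPM in spleen) and Cd81 (R74862, at 2.86 CPM in mLN and 1.64 CPM in spleen), all low beside the member. The processed copies Cd9-ps and Cd63-ps had at most 0.0199 CPM in either tissue. The strand setting of the counting is not given in the sources used here, so reads of the opposite strand cannot be told apart from those of the member.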

How the data were processed

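PolyA RNA was measured in 3 mLN and 3 spleen libraries, and the tissue label sets the groups. STAR, RSEM and the build mm10 are named in the submitters' processing notes, while versions, annotation and strand setting were not given in the sources used here. Deposited tables of the authors hold, per the file headers, an expected count per gene (an estimate that splits shared reads and need not be whole), an effective length, and TPM as computed by the authors. Of 55487 identifiers 55141 matched a symbol in GENCODE M21 (GRCm38), and coordinates are 1-based whole-gene extents from it. The 346 others held at most 0.0446% of the counts of a library.

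Expected counts were rounded to whole numbers, filtered with filterByExpr by group (14427 genes kept), scaled with TMM and tested in edgeR 4.0.16 (R 4.3.3) by glmQLFit (robust) and glmQLFTest with a single tissue term. Benjamini-Hochberg adjustment ran over the 14427 genes, the threshold was 0.05, and adjusted p-values of single genes in the text come from this test unless another tool is named. The standard error (SE) comes from the F statistic and the 95% interval from it. TPM was used for levels between genes, for shares and, as log2(TPM + 1), in an alternative with limma 3.58.1; DESeq2 1.42.0 was another. The script was tested on simulated data. Libraries of the same tissue differed by 2.52 to 2.97 times the squared difference of counting alone (median over genes), so no library was a copy. Other alternatives were RLE factors, other filters, an effective-length offset, a replicate block, each library left out, and assumed coefficients of variation of 0.2 and 0.4. The members, the lists of partners, substrates and markers, and the tests were chosen with earlier results of these data known. All members were named, as were other tetraspanin genes that were called with a mean of at least 1 CPM in the higher tissue, all TspanC8 genes, most partners and the substrates, marker genes of highest level, and per member the 2 genes most like it. The markers Itga2b and Pdpn and markers without counts in a tissue were named after their values were seen. Promoter windows are from RefSeq (GRCm38.p6), 150 bases before to 30 after the start; all 10 members matched. Some genes that these rules name are counted in their lists but not reported here.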

Additional observations from a re-analysis of the deposited data

How the results depend on the processing

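Over 16 alternatives for each of the 10 genes, 142 of 160 results kept direction and side of the threshold, 16 lost the call and 2 turned sign without a call. Tspan9 (adjusted p at most 0.000221) and Tspan33 kept theirs in all 16, as did Tspan15. Cd9 lost its call in 10. Leaving out 1 library at a time gave 2 members higher and 5 to 6 lower, 3 and 3 to 4 other tetraspanin genes, 5 and 8 to 10 partners, 2 and 3 ADAM10 substrates, and 2777 to 2984 and 3077 to 3338 of all genes. It gave member shares of summed TPM of 83.3 to 84.0% in mLN and 86.9 to 87.0% in spleen.

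limma on log2(TPM + 1) called 1657 genes higher, against 3139, and 0 other tetraspanin genes higher (3 at an unadjusted p under 0.05; DESeq2 called 3). An assumed coefficient of variation of 0.2 left 934 genes higher and 1934 lower, 1 member higher, 0 other tetraspanin genes higher (0 at an unadjusted p under 0.05), 2 partners higher and 3 lower, and 1 substrate lower. With 0.4 there were 197 genes higher and 726 lower, 1 member higher and 2 lower, 0 other tetraspanin genes higher (0 unadjusted) and 1 lower, 0 partners higher (2 unadjusted) and 1 lower, and 1 substrate higher and 0 lower (0 unadjusted). These replace the common coefficient of 0.055 by a larger one, and the quasi-likelihood test by a likelihood-ratio test without each gene's own spread. They are not stricter for every gene. With 0.2 the likelihood-ratio test gave Tspan15 an adjusted p of 3.78e-05, against 0.00118 in the main test. For the other moves the cause was not tested.

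Signs turned only for genes without a call: Tspan13 (-0.039 with limma, -0.015 to 0.052 with 1 library left out), Tspan5 (-0.13 with limma, -0.094 with the effective-length offset, -0.055 to 0.10 with 1 library left out), Tspan31 (-0.18 to 0.012), Rom1 (-0.14 to 0.046) and Lag3 (-0.041 with limma, -0.062 to 0.073).

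Same-numbered libraries correlated in their deviations from the tissue mean by 0.0267, 0.0275 and -0.0081. Deviations from a mean of 3 libraries cannot decide whether the numbers pair them by animal, and the labels do not say. With a replicate block 2 members were higher and 6 lower, as without it. Tspan15 and Cd63 rest on few counts, and their sizes are the least certain.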
